A study of Homo sapiens with 42 samples.

Results

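The contacts of 3 viewpoints around a chromatin fountain on human chromosome 9 were compared in G1, before replication begins. The set is the 6 G1 libraries of a series of 42, taken by their labels, with 2 libraries for each of the Proximal, Distal and Outside primers. All were made from K562, a chronic myeloid leukaemia line carrying a FUCCI cell-cycle reporter inserted at AAVS1, and the labels do not say whether the line is 1 clone. Unsynchronised cells were stained with a Hoechst dye that reads DNA content and sorted, and the G1 fraction was fixed, cut with DpnII and ligated in place. The labels put the Proximal and Distal primers within the fountain and the Outside primer beyond it. The 3 groups differ only in the primer from which the ligated DNA was extended. The position data hold no marker of cell-cycle phase, so the G1 label rests on the sort.

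A fountain is a pattern on contact maps in which contacts spread from a source along a line at right angles to the main diagonal. In chromosome conformation capture, DNA ends that lie close together in the fixed nucleus are ligated, and the ligation partners of 1 chosen end, the viewpoint, list what that end touches. Contact frequency falls with genomic distance, roughly as a power of it, so contacts are read against that decay. Extrusion of loops by cohesin, and boundaries that stop it, are known to raise or lower contacts on a single side of a locus relative to the decay.

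The Proximal viewpoint was placed at position 111624875 of chromosome 9 (hg19), the Distal viewpoint at 111525048 and the Outside viewpoint at 111110106. Proximal lay 99.8 kb above Distal, and Outside lay 414.9 kb below Distal and 514.8 kb below Proximal. The most frequently listed position of every G1 library fell within 1.70 kb of its primer's viewpoint. Each file lists 16350 positions, and each listed position is called a contact here. Positions recur, and 62.2% and 66.4% of contacts in the Proximal libraries repeated a listed position, against 36.2% and 38.6% in Distal and 46.6% and 49.4% in Outside. Separate ligations at the same DpnII end and copies of a single molecule cannot be told apart in these files. Between libraries of a viewpoint, counts over 20 kb windows differed by more than sampling noise, with a chi-square per degree of freedom of 2.56 for Proximal, 1.37 for Distal and 1.52 for Outside. With each position counted once these values were 0.797, 0.776 and 0.743. The labels do not state whether the libraries of a group stem from independent cultures, and p-values therefore reflect library-to-library spread that may be only technical.

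The 3 viewpoints divided their contacts differently between near, local and far partners. Contacts within 20 kb of the viewpoint made up 35.6% and 35.1% of all contacts in the Proximal libraries, 17.2% and 16.3% in Distal, and 16.2% and 15.8% in Outside. Proximal thus held more of its listed contacts close by than either other viewpoint, with no overlap between libraries. The most listed position, 0.019 kb from the viewpoint, took 535 and 536 contacts in the Proximal libraries. The most listed position took 84 and 93 in Distal and 80 and 77 in Outside. The share within 20 kb was not computed with each position once. Contacts within 20 kb were set aside, since they include uncut and self-ligated DNA, and the shares below are of the remaining contacts. The local share, from 20 kb to 2 Mb on chromosome 9, was 58.7% ± 0.47 for Proximal, 61.4% ± 0.96 for Distal and 63.3% ± 0.060 for Outside (SD, n = 2 each). The far share, on chromosome 9 beyond 2 Mb, ran the other way, at 26.0% ± 0.35, 24.8% ± 0.73 and 21.8% ± 0.88 (SD, n = 2 each). Contacts with other chromosomes made up 15.3% ± 0.12 for Proximal, 13.8% ± 0.23 for Distal and 14.8% ± 0.82 for Outside (SD, n = 2 each), and the Outside libraries overlapped the range of Proximal. An exact permutation test of F over the 3 viewpoints gave p = 0.0667 for the local and for the far share, the smallest value that this design allows, and p = 0.2 for other chromosomes. For a pair of viewpoints with 2 libraries each, a two-sided exact test cannot go below 0.333, and no single-value comparison of viewpoints below can pass 0.05. These orders depend on how the shares are formed. As a percentage of the whole library, the far share of Proximal minus Distal was -3.81 percentage points and that of Proximal minus Outside was -1.53. With a local limit of 1 Mb, Proximal minus Distal was 2.67 for the local and -4.12 for the far share. With each position once, the local share of Distal minus Outside was 1.90.

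**Figure D1:**
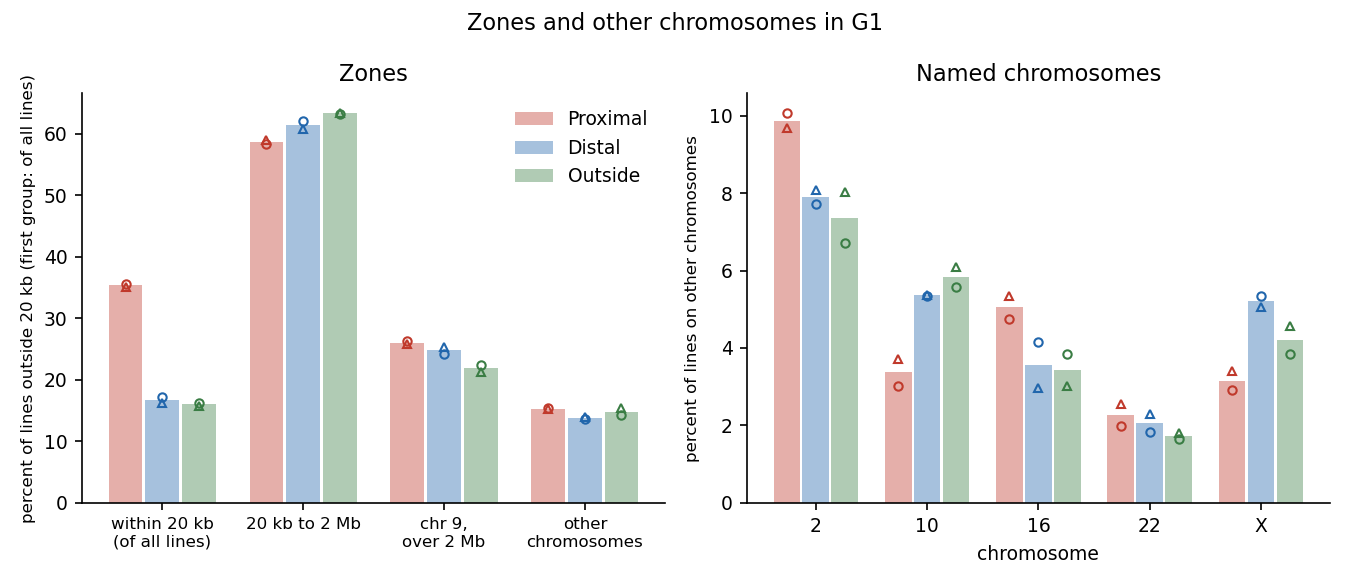
Left, percent of contacts by zone in each G1 library, of all contacts for the zone within 20 kb and of contacts outside 20 kb for the other zones; right, percent of contacts with other chromosomes that fell on chromosomes 2, 10, 16, 22 and X. Bars are means, circles replicate 1 and triangles replicate 2. The Proximal libraries stand at 35.1% or more within 20 kb and all others at 17.2% or less, while the other zones differ by a few percentage points.

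Contacts fell with distance at a different rate on each side of each viewpoint. Toward higher coordinates the fitted power-law exponent from 20 kb to 2 Mb was -0.88 and -0.93 in the Proximal libraries, -0.92 and -0.88 in Distal, and -1.06 and -1.10 in Outside. Over that whole range Outside fell faster than both fountain viewpoints, which overlapped each other. Within 200 kb alone the order was the reverse, with -0.79 ± 0.059 for Outside, -0.95 ± 0.018 for Distal and -1.03 ± 0.11 for Proximal (SD, n = 2 each). Toward lower coordinates the exponent was -0.76 and -0.81 in Proximal, -0.60 and -0.61 in Distal, and -0.69 and -0.70 in Outside. Distal had the shallowest decay there, and the libraries of the 3 viewpoints did not overlap (exact permutation test of F, p = 0.0667). With a limit of 1 Mb in place of 2 Mb the lower-side exponent of Distal minus Outside turned from 0.090 to -0.25, so that Outside was the shallower. On the higher side the same exact permutation test gave p = 0.2.

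The exponents also depended on the distance over which they were fitted, and the range was split at a preset 200 kb. Beyond 200 kb on the higher side the exponent was -0.76 ± 0.066 for Distal, against -1.33 ± 0.028 for Proximal and -1.60 ± 0.073 for Outside (SD, n = 2 each). Beyond 200 kb on the lower side it was -0.40 ± 0.050 for Proximal and -0.37 ± 0.041 for Distal, against -0.80 ± 0.012 for Outside (SD, n = 2 each). Within 200 kb on the lower side the order was different, with -1.05 ± 0.043 for Proximal, -0.49 ± 0.0070 for Distal and -0.65 ± 0.070 for Outside (SD, n = 2 each). Proximal and Distal, 99.8 kb apart, thus had like far slopes on the lower side and unlike near slopes.

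**Figure D2:**
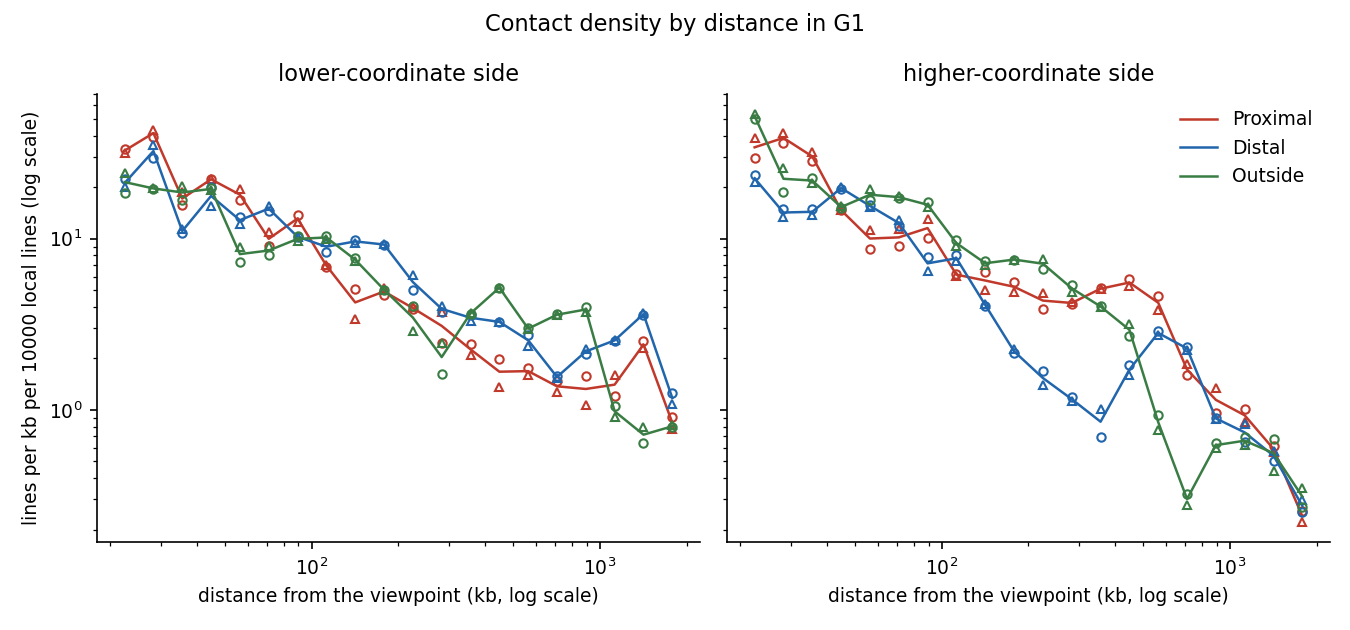
Contact density against distance from the viewpoint on the lower and the higher side, both axes logarithmic, in contacts per kb per 10000 local contacts. Circles are replicate 1, triangles replicate 2 and lines their means. On the higher side Distal lies below the other viewpoints from about 126.2 to 502.4 kb, and Outside drops below them between 500 kb and 1 Mb; on the lower side Distal and Proximal peak again beyond 1 Mb.

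The sides were unequal at Distal and nearly equal at Proximal. Of local contacts, 49.6% and 50.8% lay on the higher side of Proximal, 33.2% and 33.1% on the higher side of Distal, and 45.0% and 45.0% on the higher side of Outside. The log2 ratio of higher-side to lower-side contacts was 0.011 ± 0.052 for Proximal, -1.01 ± 0.0052 for Distal and -0.29 ± 0.0019 (SD, n = 2 each) for Outside. The 3 viewpoints did not overlap, and the exact permutation test of F gave p = 0.0667. Distal differed from Proximal by 1.02 on the log2 scale although the viewpoints are 99.8 kb apart.

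The asymmetry was uneven over distance. From 100 to 250 kb, Distal had 431 and 408 contacts on its higher side against 983 and 1039 on its lower side, a log2 ratio of -1.27 ± 0.11 (SD, n = 2). From 250 to 500 kb Distal had 268 and 264 on the higher side against 738 and 734 on the lower side, a log2 ratio of -1.47 ± 0.0098 (SD, n = 2). Proximal was the reverse in that class, with 778 and 774 higher-side against 342 and 356 lower-side contacts, and a log2 ratio of 1.15 ± 0.046 (SD, n = 2). Outside had 834 and 845 against 816 and 868 in the same class, and its libraries fell on either side of 0. From 500 kb to 1 Mb the skew moved to Outside, which had 270 and 232 higher-side against 1561 and 1518 lower-side contacts, a log2 ratio of -2.62 ± 0.13 (SD, n = 2). In that class the ratio was 0.59 ± 0.23 for Proximal and -0.16 ± 0.024 for Distal (SD, n = 2 each). From 1 to 2 Mb every library of the 3 viewpoints had more contacts on the lower side, with log2 ratios of -1.49 ± 0.11 for Proximal, -2.28 ± 0.21 for Distal and -0.77 ± 0.14 for Outside (SD, n = 2 each). Within 100 kb the ratio was 0.61 ± 0.026 for Outside, -0.12 ± 0.13 for Proximal and -0.17 ± 0.031 for Distal (SD, n = 2 each).

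As shares of local contacts, lower-side contacts from 1 to 2 Mb held 23.3% ± 0.33 for Distal, 15.0% ± 0.17 for Proximal and 8.27% ± 0.096 for Outside (SD, n = 2 each). Those from 500 kb to 1 Mb held 17.7% ± 0.42 for Outside, 10.4% ± 0.11 for Distal and 7.23% ± 1.1 for Proximal (SD, n = 2 each). On the higher side the class from 250 to 500 kb held 12.5% ± 0.21 for Proximal, 9.65% ± 0.049 for Outside and 3.18% ± 0.0091 for Distal (SD, n = 2 each). In each of these classes the libraries of the 3 viewpoints were apart.

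**Figure D3:**
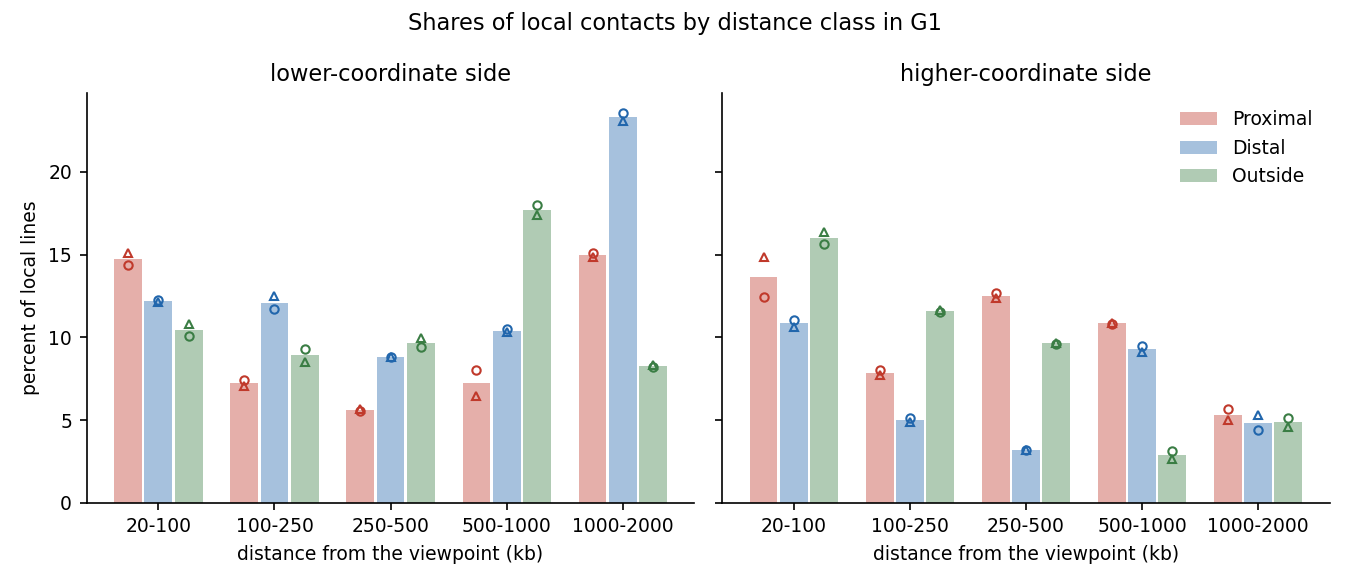
Percent of local contacts in 5 distance classes on the lower and the higher side of each viewpoint. Bars are means of 2 libraries, circles replicate 1 and triangles replicate 2. The tallest bars are Distal at 1 to 2 Mb on the lower side, 23.3%, and Outside at 500 kb to 1 Mb on the lower side, 17.7%.

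The distance profile was then tested in 40 bins of signed distance with limma on log2 counts scaled to the local total, with Benjamini-Hochberg adjustment and an adjusted p threshold of 0.05. Proximal and Distal differed in 32 bins (80% of those tested), with 16 higher and 16 lower in Proximal. Proximal and Outside differed in 28 bins (70%), with 14 in each direction, and Distal and Outside in 28 (70%), with 13 higher and 15 lower in Distal. The comparisons with Outside share its libraries. The count for Proximal against Distal fell to 20 without Distal replicate 1 and to 16 without Distal replicate 2. Scaled to the whole library in place of local contacts, the split was 7 higher and 20 lower in Proximal against Distal, and 6 higher and 21 lower against Outside.

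Contacts were next corrected for distance. In each library and on each side a power law gave the expected number per 20 kb window, and limma tested the log2 ratio of observed to expected counts, each plus 1, against 0. With 196 windows tested per viewpoint, 65 departed from the decay for Proximal (33.2% of those tested; 28 above and 37 below), 53 for Distal (27% of those tested; 21 above and 32 below) and 80 for Outside (40.8% of those tested; 29 above and 51 below). The windows above the decay were 14.3%, 10.7% and 14.8% of those tested, and those below it 18.9%, 16.3% and 26%. The median window was below the decay, at -0.34 for Proximal, -0.21 for Distal and -0.35 for Outside on the log2 scale, so fewer windows stand above it than below. The Proximal count was 41 without Proximal replicate 2. The Distal count was 17 without Distal replicate 1 and 7 without Distal replicate 2. The Outside count was 51 without Outside replicate 1 and 47 without Outside replicate 2. A least-squares decay gave 34 above and 23 below for Proximal and 29 above and 20 below for Distal, and 1 power law for both sides gave 21 above and 59 below for Distal.

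Proximal and Distal stood above their decays in much the same windows. Of windows measured from both, 17 were above the decay from both, which is 60.7% of the 28 Proximal and 81% of the 21 Distal windows. Proximal and Outside shared 9, which is 32.1% of the Proximal and 31% of the Outside windows. Distal and Outside shared 8, which is 38.1% and 29.6%. Over all windows tested, 14.3% were above the decay for Proximal, 10.7% for Distal and 14.8% for Outside. Below the decay the largest overlap was between Distal and Outside, with 22 windows, 73.3% of the Distal and 50% of the Outside ones. Proximal and Distal shared 10 below it, 28.6% and 34.5%, and Proximal and Outside 9, 34.6% and 20.9%. Over all windows tested, 18.9% were below it for Proximal, 16.3% for Distal and 26% for Outside. Across windows Pearson's r of the log2 ratios was 0.67 for Proximal and Distal (188 windows), 0.24 for Proximal and Outside (167) and 0.55 for Distal and Outside (172). These are descriptions, since neighbouring windows of a library are not independent.

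**Figure D4:**
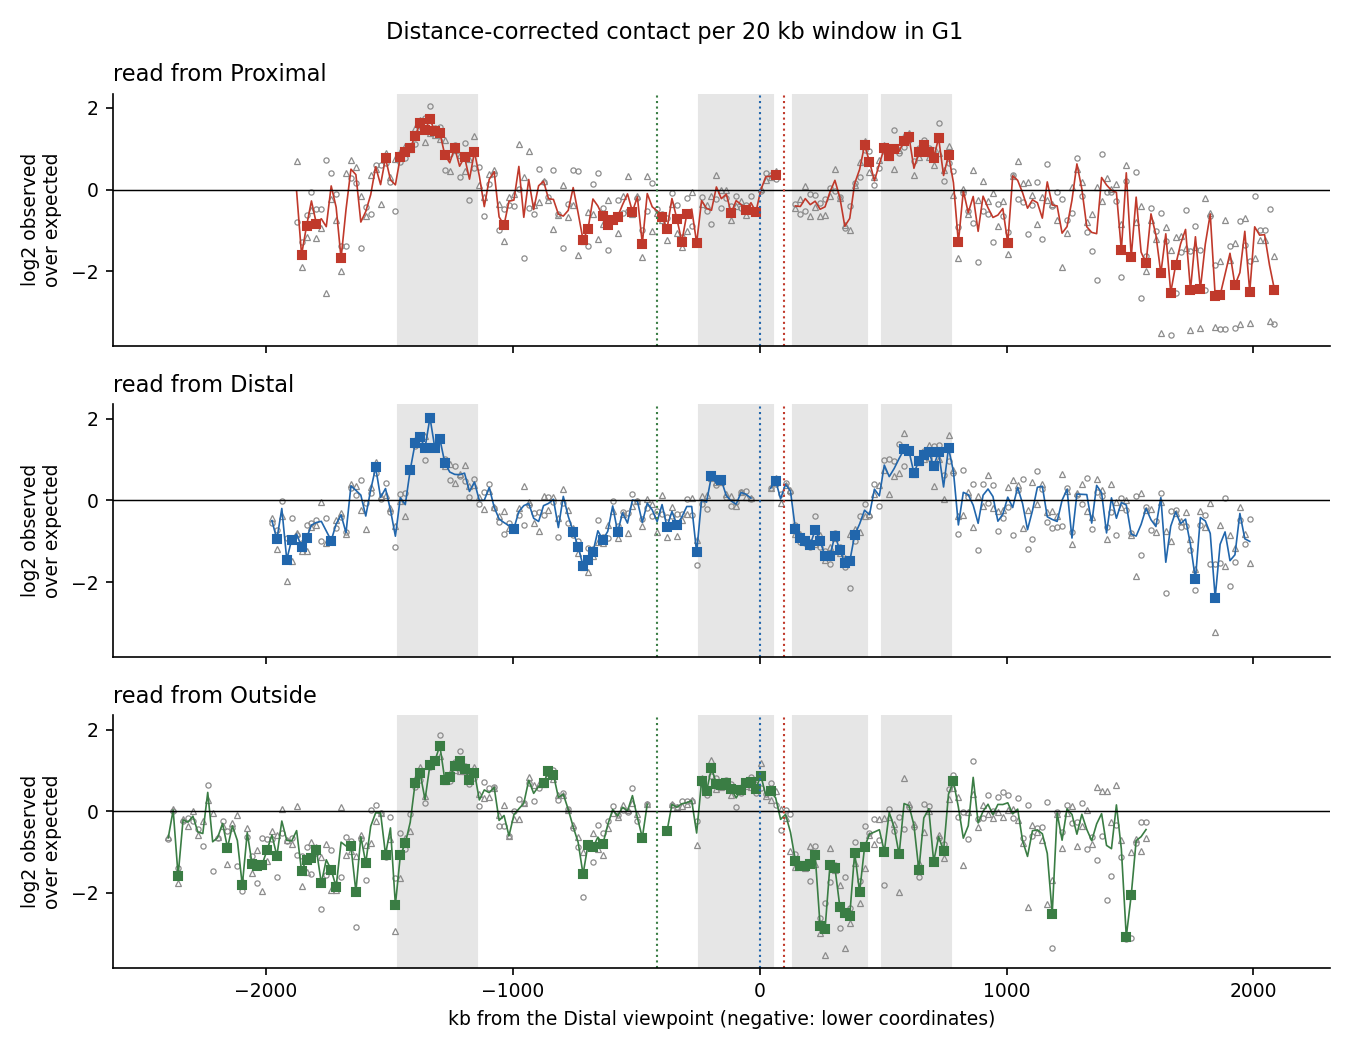
Log2 of observed over expected contacts per 20 kb window, read from Proximal, Distal and Outside, against distance from the Distal viewpoint in kb. Grey circles and triangles are replicates 1 and 2, the line is their mean and filled squares mark windows with an adjusted p below 0.05; dotted lines mark the 3 viewpoints and grey bands 4 regions described in the text. The leftmost band is mostly above 0 from every viewpoint, apart from its first 3 windows from Outside, and the rightmost band is above 0 from Proximal and Distal and mostly below it from Outside.

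A region on the lower side was contacted above the decay from all 3 viewpoints. It spans chr9:110060001-110380000, which is 1.24 to 1.56 Mb from Proximal, 1.15 to 1.47 Mb from Distal and 0.73 to 1.05 Mb from Outside. It took 520 and 482 contacts in the Proximal libraries, 1100 and 1097 in Distal and 1010 and 960 in Outside. Observed over expected was 2.25 ± 0.013 from Proximal, 2.01 ± 0.030 from Distal and 1.81 ± 0.050 from Outside (SD, n = 2 each). Summed over the region, every library was above its decay, and the region held 1315 of each 10000 local contacts of Distal, 1133 of Outside and 808 of Proximal.

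The strongest windows of that region were the following. At chr9:110180001-110200000 the Distal libraries had 146 and 134 contacts where 67.1 were expected in all (log2 2.03, limma adjusted p = 0.000816), and the Proximal libraries had 62 and 36 where 27.3 were expected (log2 1.72, adjusted p = 0.000957). The strongest Outside window was chr9:110220001-110240000, with 128 and 88 contacts where 68.3 were expected (log2 1.61, adjusted p = 0.000572). These 3 calls held without any 1 library. The position of the peak was not tested between viewpoints, and no pair of viewpoints passed in either window (limma adjusted p from 0.111 to 0.959). At the outer edge of the region Outside was below its decay in chr9:110060001-110080000 (log2 -1.08, limma adjusted p = 0.0100) and chr9:110080001-110100000 (log2 -0.79, adjusted p = 0.0225). In chr9:110000001-110100000 Outside was below its decay, with 86 and 63 contacts and an observed over expected ratio of 0.50 ± 0.10, while the ratio was 0.92 ± 0.073 from Distal and 1.59 ± 0.31 from Proximal (SD, n = 2 each). The strongest Outside window of that stretch, chr9:110040001-110060000, had 9 and 3 contacts where 60 were expected (log2 -2.29, limma adjusted p = 0.000687).

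A region on the higher side was contacted above the decay from the fountain viewpoints. In chr9:112020001-112300000, 0.40 to 0.68 Mb from Proximal, 0.49 to 0.77 Mb from Distal and 0.91 to 1.19 Mb from Outside, the Proximal libraries had 818 and 747 contacts, Distal 631 and 583, and Outside 158 and 156. Observed over expected was 1.99 ± 0.13 from Proximal and 2.04 ± 0.14 from Distal, and 0.79 ± 0.023 from Outside (SD, n = 2 each). The region carried about as much excess from Proximal as from Distal, and Outside was below its decay over the region as a whole. In the last window of the region, chr9:112280001-112300000, Outside was at 1.37 ± 0.17 of expected, and in the next, chr9:112300001-112320000, it had 24 and 18 contacts and stood at 1.72 ± 0.28 (SD, n = 2 each; limma adjusted p = 0.0407). That last call was lost without Outside replicate 1 (0.293) or 2 (0.124) or Distal replicate 1 (0.0619) or 2 (0.0621), and under a common curve its log2 ratio was -0.078. The strongest Proximal window, chr9:112120001-112140000, had 68 and 78 contacts where 58 were expected (log2 1.30, limma adjusted p = 0.00214). The strongest Distal window, chr9:112280001-112300000, had 35 and 57 contacts where 35.5 were expected (log2 1.29, adjusted p = 0.00559), and that call was lost without Distal replicate 2 (adjusted p = 0.16) and with 1 power law for both sides (0.192) or a common curve (0.111). Nearer to Proximal, chr9:111940001-111980000 was above the decay from Proximal alone among the 3 viewpoints, at 1.91 ± 0.078 against 0.81 ± 0.052 from Distal and 0.61 ± 0.16 from Outside (SD, n = 2 each). Its strongest window, chr9:111940001-111960000, had a Proximal adjusted p of 0.0177 by limma, and of 0.0848 without Proximal replicate 2.

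Between the Proximal viewpoint and that region lies a stretch that, when summed, was below the decay from all 3 viewpoints. It was lowest from Distal and Outside. Its last window, chr9:111940001-111960000, belongs to the Proximal excess described above, at 2.15 ± 0.25 of expected from Proximal (SD, n = 2). The Proximal value for the stretch thus joins windows on both sides of its decay. Up to chr9:111920000 the Proximal ratio was 0.81 ± 0.0046 (SD, n = 2). In chr9:111660001-111960000 the Distal libraries had 367 and 359 contacts and the Outside libraries 115 and 96. Observed over expected was 0.51 ± 0.0031 from Distal, 0.32 ± 0.031 from Outside and 0.87 ± 0.0095 from Proximal (SD, n = 2 each). The stretch starts 0.04 Mb above the Proximal viewpoint, so that from Distal and Outside it lies just past Proximal. The strongest Outside window, chr9:111780001-111800000, had 4 and 1 contacts where 44.9 were expected (log2 -2.89, limma adjusted p = 8.17e-05). The strongest Distal window, chr9:111860001-111880000, had 11 and 13 where 72.8 were expected (log2 -1.53, adjusted p = 0.0082). In that window the Proximal libraries had 28 and 31 contacts and ratios of 0.514 and 0.545. Proximal minus Distal there was 0.63 on the log2 scale (limma adjusted p = 0.592). The Distal call was lost without Distal replicate 1 (adjusted p = 0.069) or 2 (0.0569), while the Outside call held without any 1 library.

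Before that drop, Outside contacted the interval up to the fountain viewpoints more than its decay. In chr9:111280001-111580000, which holds the Distal viewpoint and ends 0.04 Mb short of Proximal, the Outside libraries had 1307 and 1348 contacts and an observed over expected ratio of 1.59 ± 0.047 (SD, n = 2). From Distal the ratio was 1.13 ± 0.0081 and from Proximal 0.93 ± 0.0011 (SD, n = 2 each). The Distal ratio covers 12 of the 15 windows, on both sides of its viewpoint, since those nearest to it were excluded. The strongest Outside window, chr9:111320001-111340000, had 139 and 183 contacts where 152 were expected in all (log2 1.06, limma adjusted p = 0.00159). Distal was above its decay in the same window, with 168 and 158 contacts where 215 were expected (log2 0.60, adjusted p = 0.043), a call lost without Distal replicate 1 (adjusted p = 0.341) or 2 (0.255) and without the trend of the spread (0.149).

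On its other side Outside had a second excess and shared a deficit with Distal. In chr9:110640001-110700000 Outside was at 1.83 ± 0.11 of expected, against 0.97 ± 0.040 from Distal and 0.99 ± 0.23 from Proximal (SD, n = 2 each), and the call of its strongest window (chr9:110660001-110680000, limma adjusted p = 0.00587) was lost without Outside replicate 1 (adjusted p = 0.0595). In chr9:110760001-110900000 Distal was at 0.46 ± 0.053 and Outside at 0.58 ± 0.011 (SD, n = 2 each). The Proximal libraries had 150 and 78 contacts there and ratios of 0.958 and 0.527, so that they disagreed. The strongest Distal window, chr9:110800001-110820000, had 16 and 15 contacts where 97.9 were expected (log2 -1.60, limma adjusted p = 0.00348). The call held without any 1 library but not with a common curve (adjusted p = 0.0618). In that window the Proximal libraries were alike, with 9 and 8 contacts and ratios of 0.411 and 0.387. Proximal minus Distal there was 0.37 on the log2 scale (limma adjusted p = 0.709).

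The interval between the fountain viewpoints held 1 window above the decay from both ends. With 20 kb excluded around each viewpoint, few windows of this interval could be measured from both. Proximal had 294 and 374 contacts with chr9:111580001-111600000 where 519 were expected in all, and Distal had 227 and 237 where 331 were expected. Observed over expected was 1.28 ± 0.13 from Proximal, 1.41 ± 0.10 from Distal and 1.27 ± 0.22 from Outside (SD, n = 2 each). The excess was small beside that of the distant regions, and limma gave an adjusted p of 0.0468 when read from Proximal and 0.0131 when read from Distal. Both calls were lost without either library of the viewpoint concerned (Proximal 0.101 and 0.339, Distal 0.126 and 0.299), and the Proximal call also without Distal replicate 1 (0.106) or 2 (0.104). Both were lost without the trend of the spread (0.209 for Proximal, 0.152 for Distal) and with 1 power law for both sides (0.248 and 0.0565), and the Distal call with a common curve (0.438).

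The fit named further windows with few contacts at the far end of the higher side. The expected counts there come from 1 power law per side over 20 kb to 2 Mb. The exponent beyond 200 kb was steeper than over that whole range for Proximal (-1.33 against -0.90) and Outside (-1.60 against -1.08). For Distal it was shallower (-0.76 against -0.90). Nearby, Proximal was also low in chr9:113140001-113220000, at 0.285 ± 0.010 of expected (SD, n = 2). Whether single windows were lower than their neighbours was not tested. From Proximal, chr9:113360001-113380000 had 2 and 0 contacts where 19 were expected, a ratio of 0.105 with a 95% exact Poisson interval of 0.0128 to 0.380. From Distal the same window had 2 and 0 where 16 were expected, a ratio of 0.125 with an interval of 0.0151 to 0.450. The adjusted p by limma was 0.0177 for Proximal and 0.025 for Distal. The Proximal call was lost without Proximal replicate 2 (adjusted p = 0.0922), and the Distal call without Distal replicate 1 (0.069) or 2 (0.427). From Outside, chr9:113000001-113020000 had 0 contacts in both libraries where 14.8 were expected, at least 4.94-fold fewer with a floor of 3 contacts over the group. The limma adjusted p was 0.000687, and a quasi-Poisson model gave 0.118. Proximal had 14 and 18 contacts there where 23.4 were expected. In a 95% exact binomial interval on the Proximal and Outside counts, the lower limit of the Proximal over the Outside ratio was 5.18. The adjusted p of that difference was 0.0041 by limma, and 0.104 by quasi-Poisson. Outside was also low in chr9:112700001-112720000, with 0 and 2 contacts where 17.8 were expected, a ratio of 0.112 with an interval of 0.0136 to 0.405 (limma adjusted p = 0.0014). Intervals and floors cover counting error only.

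**Figure D5:**
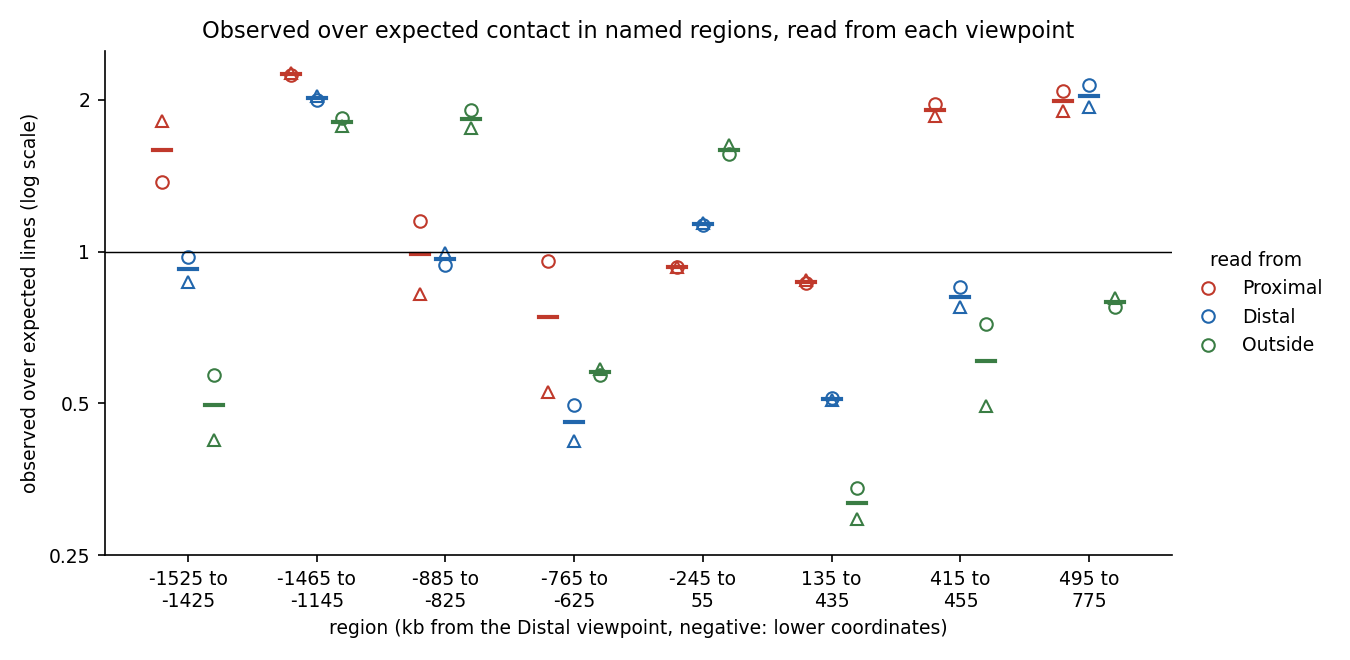
Observed over expected contacts, on a logarithmic axis, in 8 regions placed by their distance from the Distal viewpoint, read from each viewpoint. Circles are replicate 1, triangles replicate 2 and bars their means; the line at 1 is the fitted decay. The region from 1.15 to 1.47 Mb below Distal is above 1 from every viewpoint, whereas the last region is at 1.99 from Proximal, 2.04 from Distal and 0.79 from Outside. In the region that holds the Distal viewpoint, the Distal values cover 12 of 15 windows.

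The differences between viewpoints were tested window by window after the distance correction. Between Proximal and Distal, 0 of 188 windows passed by limma (0% of those tested), against 9 by a quasi-Poisson model. With 1 power law for both sides 22 windows passed (14 higher and 8 lower in Proximal), and with a common curve 3. The unadjusted p was under 0.05 in 27 windows. Without Proximal replicate 1 limma called 2 windows, and without Proximal replicate 2 it called 3. In simulated data for this comparison the test found 47.9% of 2-fold and 16.7% of 1.5-fold differences over 188 windows, so many differences of that size would have been missed. The simulated counts were drawn around the fitted decay with 1 spread pooled over the viewpoints. The Proximal libraries differed most from each other (chi-square per degree of freedom 2.56, against 1.37 for Distal and 1.52 for Outside), so these rates may not hold for Proximal. In the strongest shared window, chr9:110180001-110200000, Proximal minus Distal was -0.31 with a standard error of 0.34 on the log2 scale (adjusted p = 0.733). The difference in chr9:111940001-111960000 was 1.32 with a standard error of 0.40 (adjusted p = 0.195).

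Against Outside, distance-corrected contact differed more widely. Proximal and Outside differed in 55 of 167 windows (32.9%), with 36 higher and 19 lower in Proximal, and Distal and Outside in 16 of 172 (9.3%), with 15 higher and 1 lower in Distal. The Distal against Outside count was 2 without Distal replicate 1, 4 without Distal replicate 2, 5 without Outside replicate 1 and 8 without Outside replicate 2. It was 36 without Proximal replicate 1 and 35 without Proximal replicate 2, whose libraries enter only the estimate of the spread. A quasi-Poisson model called 20 higher and 19 lower, so that neither the number nor the direction of the Distal against Outside calls is settled. The difference in counts between these comparisons was not itself tested, and both use the Outside libraries.

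The windows behind these counts fall mostly in the regions above. Proximal was above Outside throughout most of chr9:111760001-112280000, where 21 windows passed and observed over expected was 1.37 ± 0.066 from Proximal against 0.52 ± 0.011 from Outside (SD, n = 2 each). Its strongest window, chr9:111920001-111940000, had 56 and 75 Proximal contacts against 5 and 3 Outside contacts (log2 difference 2.48, limma adjusted p = 0.00108). Distal was above Outside in chr9:112160001-112280000, at 2.04 ± 0.26 against 0.63 ± 0.064 (SD, n = 2 each), and its strongest window, chr9:112160001-112180000, had 42 and 41 contacts against 4 and 5 (log2 difference 2.41, adjusted p = 0.00198). Outside was above Proximal in chr9:111280001-111540000, at 1.61 ± 0.066 against 0.82 ± 0.019 (SD, n = 2 each), where 11 windows passed. Outside was also above Proximal in chr9:111180001-111240000, close to its own viewpoint, at 1.11 ± 0.032 against 0.56 ± 0.18 (SD, n = 2 each). The 4 strongest-window calls of these regions held without any 1 library, with adjusted p of 0.00249 for chr9:111320001-111340000 and 0.00108 for chr9:111200001-111220000 by limma. On the lower side Proximal was above Outside in chr9:110000001-110120000 (1.68 ± 0.25 against 0.55 ± 0.11) and in chr9:109860001-109900000 (1.40 ± 0.30 against 0.41 ± 0.084; SD, n = 2 each).

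Each contact between viewpoints can be read from both of its ends, which share no primer. In 40 kb around the other viewpoint, Proximal had 251 and 246 contacts with Distal, and Distal had 273 and 240 with Proximal, which is 1.11 and 1.14 times the expected number. The fountain viewpoints thus met only slightly above their decay, and the reading from both ends overlapped (difference of log2 ratios -0.036, two-sided exact permutation p = 0.667). Proximal had 40 and 41 contacts with Outside, 0.662 times the expected number with a 95% exact Poisson interval of 0.526 to 0.823. From the Outside end the same contact was read 51 and 56 times, 0.881 times the expected number with an interval of 0.722 to 1.06. Distal had 112 and 108 contacts with Outside, 0.808 of expected (0.705 to 0.922), while Outside had 99 and 158 with Distal, 1.68 times the expected number (1.48 to 1.89). The readings of this last contact lay on opposite sides of their decays, with a log2 difference of -1.01 (two-sided exact permutation p = 0.333, the smallest possible). Its expected numbers, from each library's own fitted decay, were 137 and 135 from Distal and 77.6 and 75.8 from Outside. The ends of this contact thus differed more in expected than in observed numbers. The Outside libraries also differed from each other, at log2 ratios of 0.35 and 1.06.

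Beyond 2 Mb on chromosome 9 the viewpoints were apart in lower-side contacts from 2 to 5 Mb away. These made up 5.34% ± 0.11 of contacts outside 20 kb for Proximal, 7.47% ± 0.12 for Distal and 3.83% ± 0.13 for Outside (SD, n = 2 each), with no overlap. On the higher side contacts at that distance made up 3.36% ± 0.050, 2.60% ± 0.14 and 2.71% ± 0.12 (SD, n = 2 each), and there Distal and Outside overlapped. Higher-side contacts from 5 to 10 Mb away overlapped between all 3 viewpoints. From 10 to 20 Mb on the higher side the Proximal libraries, at 3.32% and 3.68%, were above those of Distal (2.47% and 2.69%) and Outside (2.90% and 2.22%). Beyond 20 Mb on that side all 3 were apart, at 1.02% ± 0.078 for Proximal, 0.61% ± 0.089 for Distal and 0.44% ± 0.096 for Outside (SD, n = 2 each). On the lower side Proximal and Outside overlapped from 5 to 10 Mb, at 2.22% ± 0.17 and 2.09% ± 0.14, above Distal at 1.83% ± 0.040 (SD, n = 2 each). From 10 to 20 Mb on the lower side Proximal, at 2.52% ± 0.44, was above Distal, at 1.74% ± 0.20, and Outside, at 1.55% ± 0.28, which overlapped. Beyond 20 Mb there Outside was highest, at 5.87% ± 0.26, and Proximal and Distal overlapped at 4.90% ± 0.20 and 5.02% ± 0.096 (SD, n = 2 each). No pair of viewpoints was tested in these classes.

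Positions on other chromosomes were listed on all 23 of them, in proportions that differed for a few, and their placement by the aligner was not checked here. Chromosome Y is among the 23, with 6 and 18 positions in the Proximal libraries, 12 and 14 in Distal and 12 and 12 in Outside. Chromosome 10 took 3.03% and 3.72% of these contacts in the Proximal libraries, 5.35% and 5.37% in Distal and 5.59% and 6.08% in Outside. Proximal was lower than Distal by limma (log2 -0.67, adjusted p = 0.00309) and lower than Outside (log2 -0.79, adjusted p = 0.000548). Chromosome X took 2.90% and 3.41% in Proximal and 5.35% and 5.06% in Distal (log2 -0.72, limma adjusted p = 0.00309). These are the 2 of 23 chromosomes that passed between Proximal and Distal (8.7%), and 4 passed, all lower in Proximal, when scaled to the whole library. Between Proximal and Outside 3 passed (13%), with chromosomes 2 (log2 0.43, limma adjusted p = 0.0357) and 16 (log2 0.56, adjusted p = 0.0357) higher in Proximal (8.7%) and chromosome 10 lower (4.35%). Scaled to the whole library in place of these contacts, 0 were higher and 7 lower in Proximal, with chromosome 2 at log2 0.095 (adjusted p = 0.762) and chromosome 16 at 0.23 (adjusted p = 0.388). Without the trend of the spread both were lost as well (adjusted p = 0.252 and 0.169). Between Distal and Outside 0 passed by limma, and 1 had an unadjusted p below 0.05.

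Each of these 5 calls was lost without at least 1 library, and 2 of them with each position counted once. On chromosome 2 the most listed position of Proximal replicate 1 took 12 of 163 contacts, and that of replicate 2 took 31 of 156. Whether these are the same position was not examined. With each position once the limma adjusted p of chromosome 2 against Outside was 0.192. Chromosome X was at 0.126 with each position once. The chromosome 10 difference from Outside was lost without Proximal replicate 1 (adjusted p = 0.0961). The chromosome 10 and X differences from Distal were lost without Proximal replicate 1 (0.156 for each), Distal replicate 1 (0.0799 for each) or Distal replicate 2 (0.0951 for each). For chromosome 2 the adjusted p was between 0.0805 and 0.195 without Proximal replicate 1 or 2, Distal replicate 1 or 2 or Outside replicate 1. For chromosome 16 it was between 0.0967 and 0.445 without Proximal replicate 1 or 2, Distal replicate 1 or 2 or Outside replicate 2. Between Proximal and Distal no chromosome passed without Distal replicate 1 or 2, 1 passed without Proximal replicate 1, and 4 passed without Outside replicate 1 or 2. Between Proximal and Outside 1 passed without Proximal replicate 1, Distal replicate 1 or Distal replicate 2. K562 carries a translocation between chromosomes 9 and 22, and chromosome 22 took 2.26% ± 0.40, 2.07% ± 0.32 and 1.72% ± 0.11 of these contacts for Proximal, Distal and Outside (SD, n = 2 each), with no pair of viewpoints passing.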

How the data were processed

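The authors deposited lists of 1-base positions (chromosome, start and end) with no value column, 1 listed ligation partner per row; the other columns of such lists hold no count, ratio or score, per the file headers. All files have 16350 rows, so libraries had been brought to 1 size by a step not given in the sources used here, and depth before it is unknown. Cutadapt, bedtools and the hg19 build are named in the submitters' processing notes, while the aligner and the handling of molecular barcodes are not stated there. No gene names or sequences are given, since an hg19 annotation was not used here.

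Viewpoints were the most listed position over the 14 libraries of each primer. Only the 6 G1 libraries entered comparisons. Contacts within 20 kb were dropped and local contacts reached 2 Mb. Bins were log-spaced, 10 per decade and side. Expected counts in 20 kb windows came from a Poisson power law per library and side, and windows needed at least 5 expected contacts. Bins, windows and the 23 other chromosomes were tested with limma, with a pseudocount of 1, eBayes and a trend of the spread, and all 6 libraries shared 1 estimate of the spread. The p-values were adjusted by Benjamini-Hochberg with a threshold of 0.05. Single values had exact permutation tests. A count model was an alternative only (quasi-Poisson), since the files are position lists. On 20 simulated datasets of Proximal against Distal the bin test found 93.8% of 1.5-fold changes with 6.63% false calls over 40 bins, and the window test had 6.42% false calls over 188 windows. Each simulation used 1 spread pooled over the viewpoints, which may differ from that of the Proximal libraries.

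Windows past the threshold with 1 sign in both libraries were merged when at most 1 window apart. Up to 6 regions above and 4 below the decay per viewpoint, and 4 per direction and pair, were named by their strongest window. Distance classes up to 2 Mb, chromosomes past the threshold and chromosome 22 were always named. The members, classes and rules were chosen with earlier results of these data known. Alternatives changed the scaling, repeated positions, the excluded zone, the limit, bins, windows, the decay model, the pseudocount, the trend, a replicate block, a quasi-Poisson model and each library. Fits ran in R 4.3.3 (limma 3.58.1). Counting and permutation tests ran in Python 3.11.15 (numpy 2.4.6, scipy 1.17.1), tables in pandas 2.3.3 and plots in matplotlib 3.10.9.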

Additional observations from a re-analysis of the deposited data

Results flagged for a closer look

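In some distance classes every library of 1 viewpoint had more contacts on its higher side while every library of another had more on its lower side. The differences below are of the log2 ratio of higher-side to lower-side contacts, and the difference itself was not tested in any of them. Within 100 kb, Proximal minus Outside was -0.73 and Distal minus Outside was -0.79, with Outside on the higher side and the fountain viewpoints on the lower side. From 100 to 250 kb, Proximal minus Distal was 1.39 and Distal minus Outside was -1.65, with Distal alone leaning to the lower side. From 250 to 500 kb, Proximal minus Distal was 2.62. From 500 kb to 1 Mb, Proximal minus Distal was 0.76 and Proximal minus Outside was 3.21, with Proximal leaning to the higher side and both others to the lower side.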

How the results depend on the processing

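With 2 libraries per viewpoint the exact tests of single values could not pass, and windows with few contacts had little power. Of shares, the sign of the difference turned in some settings, and the cause was not tested beyond what each setting does. With a local limit of 1 Mb, Proximal minus Distal was 2.67 for the local and -4.12 for the far share, and the lower-side exponent of Distal minus Outside was -0.25. For contacts between viewpoints, the value compared is the log2 ratio read from the first end minus that from the second. For Proximal and Outside this difference was 0.17 with that limit, against -0.41 in the main setting. With the whole library as denominator, Proximal minus Distal was -3.81 for the far and -1.64 for the trans share, and Proximal minus Outside was -1.53 and -2.57. With each position once, the local share of Distal minus Outside was 1.90, the trans share of Proximal minus Outside -0.83, the higher-side exponent of Proximal minus Distal -0.028, and chromosome 22 of Proximal minus Distal -0.11. That exponent was -0.0041 with a least-squares decay, and chromosome 22 was -0.092 scaled to the whole library. The difference between the end readings of Proximal and Distal was 0.27 with 50 kb excluded. With a common curve in place of power laws it was 0.39, and that of Proximal and Outside was 0.087. The Outside window at 112300001 was at -0.078 with that curve.

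Leaving out 1 library at a time, the share differences of Proximal minus Distal ran from -3.36 to -2.00 (local), 0.73 to 1.75 (far) and 1.28 to 1.61 (trans). Proximal minus Outside ran from -4.96 to -4.30, 3.54 to 4.79 and -0.12 to 1.05, and Distal minus Outside from -2.63 to -1.27, 2.30 to 3.55 and -1.56 to -0.40. The higher-side exponent ran from -0.024 to 0.026, 0.15 to 0.20 and 0.16 to 0.20 for the pairs in that order, and the lower-side exponent from -0.21 to -0.16, -0.12 to -0.068 and 0.080 to 0.099. Asymmetry ran from 0.99 to 1.06, 0.26 to 0.34 and -0.72 to -0.72. The difference between the end readings of contacts between viewpoints ran from -0.096 to 0.024, -0.50 to -0.32 and -1.37 to -0.66. Chromosome 22 of Proximal minus Distal ran from -0.054 without Proximal replicate 2 to 0.30 without Proximal replicate 1, and was -0.033 without Distal replicate 1. Bins called ran from 16 to 29, 22 to 29 and 20 to 29, windows off the decay from 41 to 70 (Proximal), 7 to 75 (Distal) and 47 to 96 (Outside), windows differing from 0 to 3, 41 to 65 and 2 to 36, and chromosomes from 0 to 4, 1 to 3 and 0 to 0.

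Counts moved by over 1.5 times in these settings, but a change of bin or window width also changes the number tested. With 5 bins per decade 15, 15 and 16 of 20 bins were called, against 32, 28 and 28 of 40. With 10 kb windows 38 of 359 Proximal and 29 of 339 Distal windows were off the decay. At that width 32 of 282 differed between Proximal and Outside and 1 of 292 between Distal and Outside. With 40 kb windows 32 of 97 Distal windows were off the decay and 1 of 93 differed between Proximal and Distal. With 1 power law for both sides 80 Distal windows were off the decay, 22 differed between Proximal and Distal and 4 between Distal and Outside. A common curve gave 3 and 6, and a quasi-Poisson model 9 and 39. Between Distal and Outside 27 windows differed with each position once, 2 without the trend, 7 with a pseudocount of 0.5, 26 with a pseudocount of 3 and 2 with 50 kb excluded. Chromosomes called were 1 (Proximal and Distal) with each position once, 4 (Proximal and Distal) and 7 (Proximal and Outside) scaled to the whole library, and 1 (Proximal and Outside) without the trend. Of the named windows, 412 of the tests under settings other than leaving out a library kept their direction and side of the threshold, 45 lost the call and 1 turned. Of those leaving out a library 190 kept it and 44 lost it.

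The replicate numbers did not establish pairs: the correlations of same-numbered deviations were 0.095, -0.038 and 0.018 over 2 pairs each. With the replicate number as a block 34, 28 and 28 bins, 81, 65 and 93 windows off the decay, 3, 64 and 24 differing windows and 3, 2 and 0 chromosomes were called.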
